A study of Ovis aries with 18 samples.

Results

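Patchy genes were defined as genes whose transcript level was far higher in 1 or a few sheep than in the typical sheep. Their levels on long and short photoperiod also had to overlap, which does not keep out genes that differ between groups. Members had a highest level of at least 20 CPM (counts per 1000000 gene counts of the library, scaled by the trimmed mean of M values, TMM) that was also at least 10 times the median of 15 animals. Genes in which all 7 animals on long photoperiod lay above or below all 8 animals on short photoperiod were left out. Of 25197 genes counted, 78 passed both thresholds, 3 of these were left out because the photoperiods did not overlap, and 75 remained. They were 0.298% of all genes and 0.943% of the 7952 genes with a highest level of at least 20 CPM. The levels that chose these genes are given below as a description, without a test of those levels.

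The RNA came from the pars tuberalis (PT), dissected from castrated male Scottish Blackface sheep held on short photoperiod for 4 weeks (SP4) or 16 weeks (SP16), or on long photoperiod for 4 weeks (LP4) or 22 weeks (LP22). Breed, sex and castration were shared by all groups. Each group held 4 animals, and 18 libraries came from 16 animals, because SP4 animal 1 and LP4 animal 2 had a repeat library each. Here both libraries of SP4 animal 1 were summed, LP4 animal 2 was read from its repeat library, and LP4 animal 3 was left out, which gave 15 animals with 3 in LP4.

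The PT is the part of the pituitary that wraps the stalk below the hypothalamus, and it is rich in melatonin receptors. Its thyrotrophs read the length of the night from melatonin and release thyrotropin in long days, which acts on tanycytes in the neighbouring median eminence. The gland also lies beside the pars distalis, with its hormone cells, and beside connective tissue and blood vessels. In tissue RNA of this kind, fewer cells of a type and less RNA per cell cannot be told apart.

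The deposited values identify genes by Ensembl sheep IDs alone, and neither the count files nor the reference table pair those IDs with symbols. Members are therefore given by ID, the functions of the genes are not stated, and the labelled tissue was not checked against its markers. Names in the study's supplementary tables were not used here. For the same reason, markers of neighbouring tissues were not measured, and their part in any result was not tested.

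Total gene counts in the libraries used ran from 1730773 to 4119508. The repeat library of LP4 animal 2 stood apart from the others used. Its 10 most abundant genes took 59.2% of its counts, against 37.6% to 47.1% in the other libraries used. Genes took 21.3% of its aligned reads, against 15.3% to 18.6%. Its TMM factor was 0.636, against 0.951 to 1.08 in the other animals. The libraries not used for choosing members had the lowest correlations with the rest. Their median r across genes was 0.443 for LP4 animal 3 and 0.708 for the first of the libraries of LP4 animal 2. In the same order, their 10 most abundant genes took 65.2% and 52.6% of counts, and genes took 52.6% and 31.0% of aligned reads. Reads not aligned were 62.9% and 84.3% of all reads.

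The animal in which a member was highest was unevenly spread. LP4 animal 2 held the highest level of 46 members and LP22 animal 2 that of 16. SP4 animal 1 was highest for 3 members, SP4 animal 2, SP4 animal 4 and SP16 animal 4 for 2 each, and SP16 animal 1, LP4 animal 4, LP22 animal 1 and LP22 animal 4 for 1 each. The remaining 5 animals were highest for 0 members. Long-photoperiod animals were therefore highest for 65 members and short-photoperiod animals for 10, and 62 of the 65 rested on 2 animals.

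**Figure D1:**
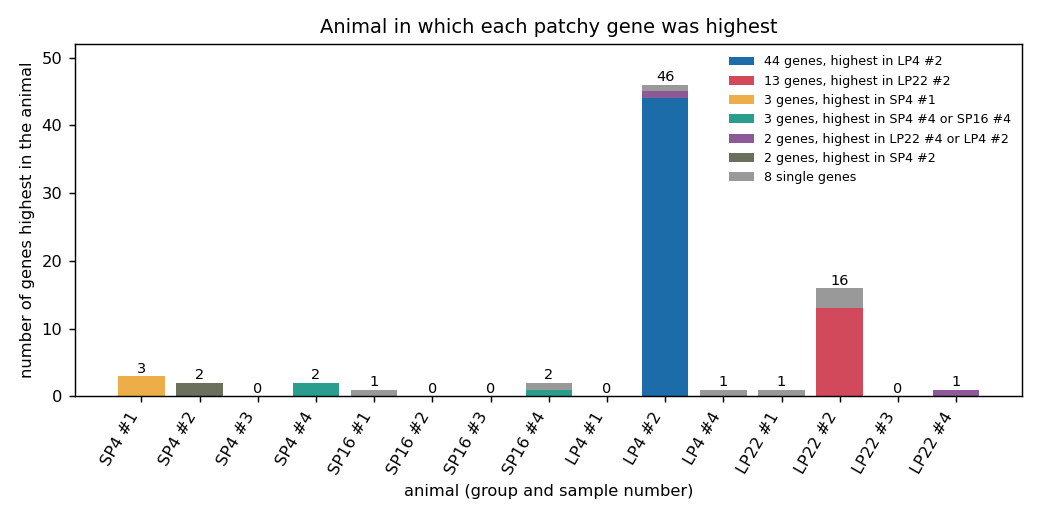
Number of patchy genes (vertical axis, genes) whose highest level fell in each of the 15 animals (horizontal axis, group and animal number). Colours give the sets joined by Pearson's r. LP4 animal 2 carried 46 of the 75 genes and LP22 animal 2 carried 16.

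Most members were high in a single animal. For 63 members only 1 animal passed both thresholds, for the other 12 at least 2 animals did, and 5 animals was the most for any member. In the animal where a member was highest it had 37 to 41693 counts, with a median of 279, so its presence there did not rest on a few reads. For 4 members the median of the 15 animals was 0. Members just inside the fold threshold stood at 10.02, 10.02 and 10.04 times their median, and the nearest genes outside stood at 9.97, 9.83 and 9.65 times. Just inside the level threshold, the highest CPM was 20.5, 20.6 and 20.7, and just outside it was 19.6, 19.5 and 16.9. A further 21 genes lay at 8 to under 10 times their median.

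Whether the members rose together was read from Pearson's r of log2 CPM over the 15 animals, a description of animals that the rule itself had already picked out. Over all 2775 pairs of members the median r was 0.253, so the 75 genes did not form a single block. When members were joined down to a mean r of 0.7, they fell into 6 sets of 2 or more with 67 members in all, and 8 members stayed single. A set of 44 genes and a set of 13 genes held 57 members between them. This count was 19 when Spearman's rho replaced Pearson's r and 23 without LP4 animal 2.

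**Figure D2:**
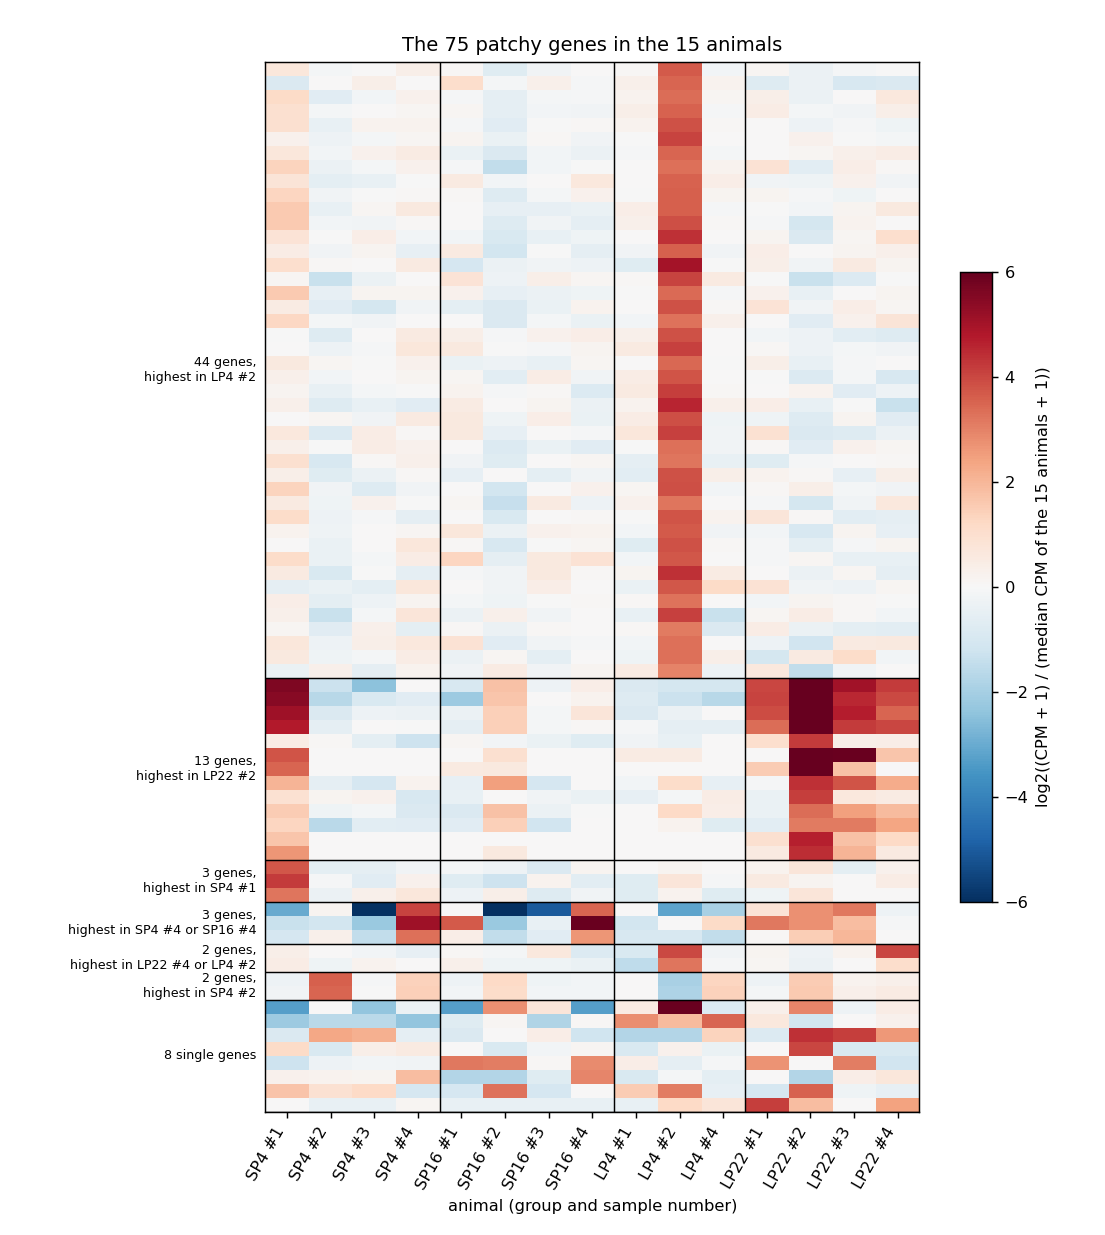
Level of each of the 75 patchy genes (rows, grouped by the sets joined by Pearson's r) in each of the 15 animals (columns). Colours give the log2 ratio of CPM + 1 to the median CPM + 1, darkest at 6 log2 units or more from the median. The 44 genes at the top are darkest red in LP4 animal 2, and 38 of them also lie above the median in SP4 animal 1. The 13 genes below them are red in LP22 animal 2, SP4 animal 1 and, for most of them, LP22 animals 3 and 4.

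The largest set, of 44 genes, was highest in LP4 animal 2 for every member. Their highest levels ran from 20.7 to 17290 CPM with a median of 145.1 CPM, at 10.02 to 39.1 times the median animal. The second highest animal was far below, as the highest level was 3.66 to 19.3 times the second highest, with a median of 7.49. Correlations within the set ran from 0.536 to 0.986 with a median of 0.873. A further 33 genes outside the patchy set correlated with the set's mean at r of at least 0.9, out of 16159 genes examined. They stood at 2.06 to 24.1 times their median in the same animal. As every member was highest in that animal, genes raised there reach such an r more readily, and no separate support is read from them.

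ENSOARG00000022315 had the highest level of any member. It stood at 2148, 1212, 1366 and 1712 CPM in SP4, at 1387, 794, 1141 and 1334 CPM in SP16, at 1407, 17290 and 1173 CPM in LP4, and at 1451, 1060, 1225 and 1293 CPM in LP22. Apart from LP4 animal 2, the groups overlapped and all 14 animals lay between 794 and 2148 CPM.

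ENSOARG00000023987 was also highest in LP4 animal 2, but the order of the other animals differed. Its levels were 198.5, 373, 468 and 367 CPM in SP4, 771, 340.1, 459 and 350.4 CPM in SP16, 454, 4096 and 419.6 CPM in LP4, and 216, 289.7, 188 and 202 CPM in LP22. The other 14 animals ran from 188 to 771 CPM, and all 4 LP22 animals lay below all 4 SP16 animals.

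The 44 genes were not high as a set in the other library labelled LP4 animal 2. Whether both libraries came from the same animal was not tested, and the labels alone tie them. Their summed level was 30300 CPM in the repeat library of LP4 animal 2 and 769 CPM in its first library, where 14 of the 44 had 0 counts and the median gene stood at 0.395 times the median of the 15 animals. In the library of LP4 animal 3 the sum was 303 CPM. In the libraries of the other animals it ran from 1580 to 4056 CPM. The highest of these was the repeat library of SP4 animal 1, with 37 of the 44 above the median of the 15 animals. With its libraries summed, SP4 animal 1 was the second highest animal for 20 of the 44. The first library of LP4 animal 2 held 1088288 gene counts, so the 3 counts taken as the floor of detection were 2.48 CPM there. Of the 51 members at 20 CPM or more in either library of LP4 animal 2, 48 differed more than 5-fold between its libraries, 46 of them higher in the repeat, and all 46 members highest in LP4 animal 2 were among them. Of all 7202 genes at that level 16.3% differed as much, but the members were chosen for their level in the repeat library, so nothing is read from the larger share.

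Part of this set's size depended on the scaling. With CPM scaled by the total count alone, 14 of the 44 passed the thresholds, and 44 members were found in all. Without LP4 animal 2 none of the 44 remained, and the patchy set fell to 31 genes, 28 of them from the 75. With SP4 animal 1 read from its first library and LP4 animals 2 and 3 both left out, none of the 44 remained and 37 genes were found, 26 of them from the 75.

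The IDs of the 44 genes all fell in the highest-numbered stretch of the annotation, with last digits from 21301 to 25123. Of the 75 members, 49 had numbers from 21301 up, the lowest number in the set of 44. Of all 25197 IDs 15.5% lay there, and of the genes with a highest level of at least 20 CPM 2.35% did, but this boundary was taken from the set itself, so the shares are no comparison. What distinguishes genes in that stretch is not given in the sources used here.

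The second set, of 13 genes, was highest in LP22 animal 2, and its summed level in the other LP22 animals was lower and carried mainly by its 4 leading genes. Highest levels ran from 20.6 to 3469 CPM, 4 of the 13 had a median of 0 over the animals, and r within the set ran from 0.566 to 0.990 with a median of 0.843. The summed level of the set was 7690 CPM in LP22 animal 2, 495 CPM in LP22 animal 3, 251 CPM in LP22 animal 4 and 221 CPM in LP22 animal 1. In SP16 it reached 69.9 CPM in animal 2, and in the remaining libraries other than the repeat of SP4 animal 1 it lay between 4.95 and 43.6 CPM.

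ENSOARG00000009143 led this set. It stood at 260.4, 1.22, 0 and 4.46 CPM in SP4, with the values of SP4 animal 1 summed over its libraries, and at 1.79, 17.3, 3.47 and 6.14 CPM in SP16. In LP4 it stood at 2.02, 1.66 and 1.66 CPM, and in LP22 at 87.7, 3469, 179.6 and 97.7 CPM. All 4 LP22 animals lay above all SP16 and LP4 animals, whereas SP4 overlapped LP22 because of animal 1.

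In SP4 animal 1 the level of these genes depended on the library. The set summed to 886 CPM in the repeat library and to 43.6 CPM in the first. For ENSOARG00000009143 the repeat library held 1432 counts, 379.5 CPM, and the first library held 16 counts, 8.40 CPM. The 2 libraries carry the same animal's label, and for this gene the repeat lay within the range of LP22 animals and the first library within that of SP16 animals.

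The 4 leading genes of the set kept nearly the same proportions wherever they were abundant. Their pairwise r ran from 0.979 to 0.990. In the 5 libraries with at least 100 counts of them, ENSOARG00000009143 took 43.6% to 50.4% of their joint counts, and the next 3 took 28.9% to 36.3%, 9.28% to 13.4% and 6.11% to 10.97%. Those 5 libraries were the 4 of LP22 and the repeat library of SP4 animal 1, and their joint counts ran from 422 to 13151. The other members of the set were less tightly tied, and 3 of them had a highest level only 1.01 to 1.55 times that of the second highest animal.

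**Figure D3:**
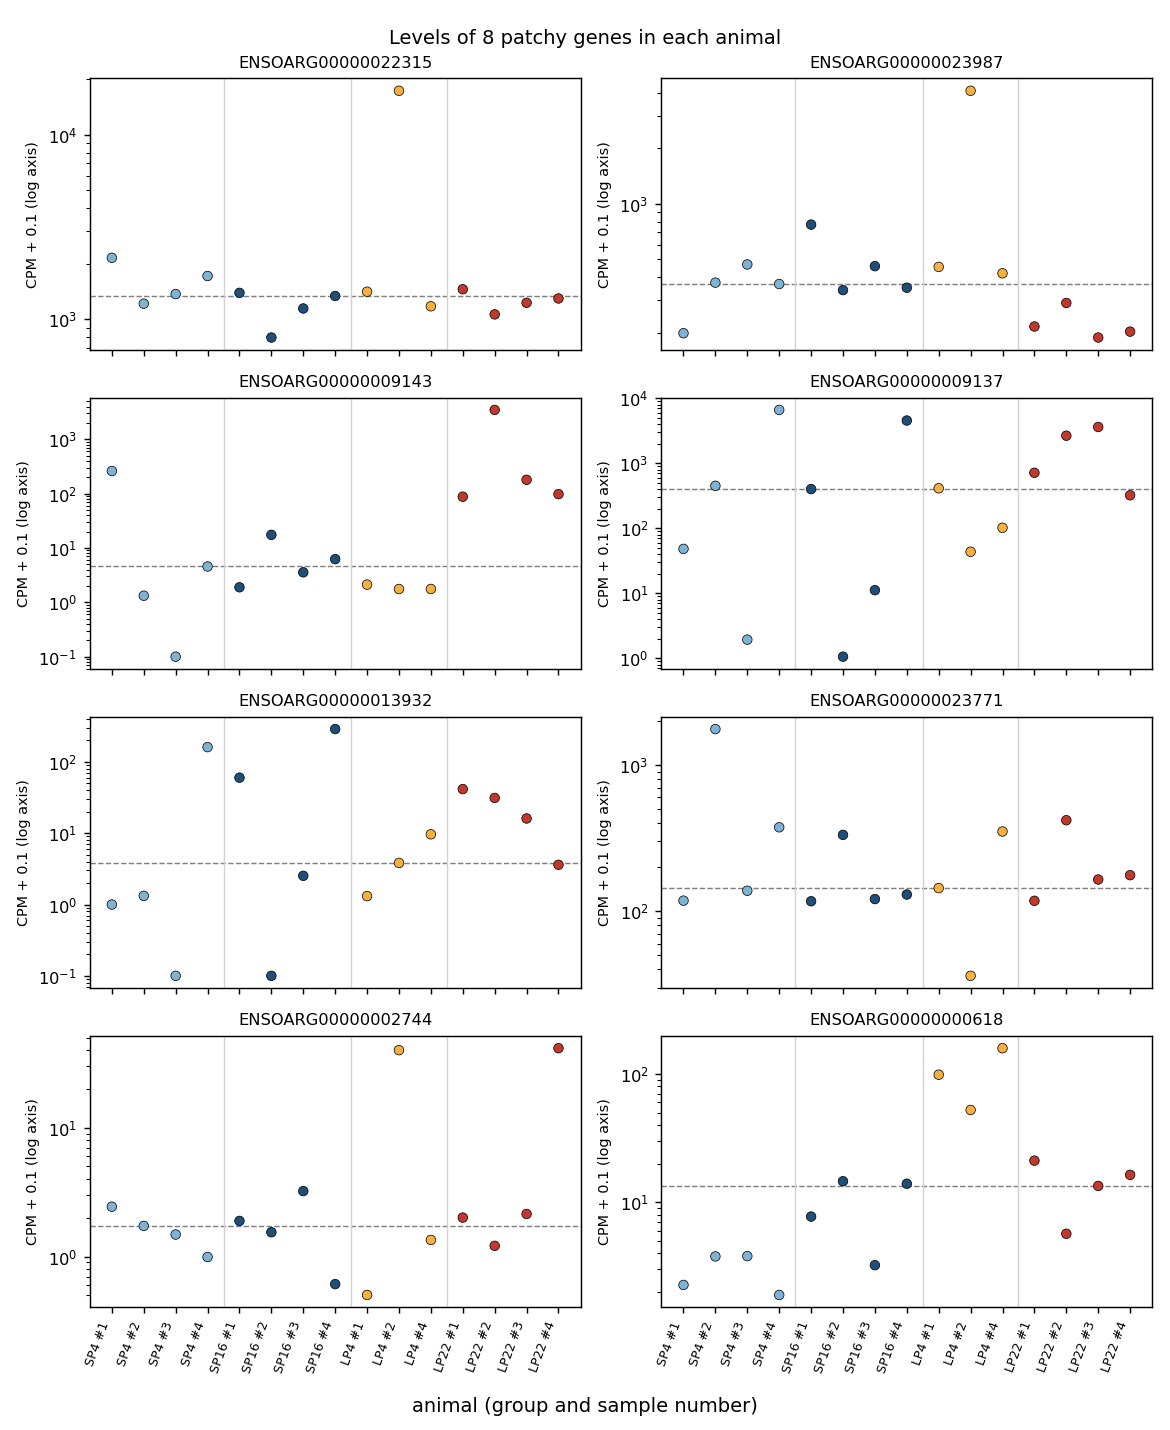
CPM + 0.1 (vertical axes, log scale) of 8 patchy genes in each of the 15 animals (horizontal axis), coloured by group, with a dashed line at the median of the 15 animals. ENSOARG00000022315 and ENSOARG00000023987 stand out in LP4 animal 2 only, ENSOARG00000009143 in the 4 LP22 animals and SP4 animal 1, and ENSOARG00000009137 and ENSOARG00000013932 are highest in SP4 animal 4 and SP16 animal 4, with LP22 animals 2 and 3 next for ENSOARG00000009137.

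A set of 3 genes was highest in short-photoperiod animals. ENSOARG00000009137 stood at 48.2, 450.4, 1.84 and 6613 CPM in SP4, at 401, 0.963, 11.1 and 4542 CPM in SP16, at 412, 43.5 and 102 CPM in LP4, and at 714.5, 2653, 3612 and 322 CPM in LP22. The 4 groups overlapped, and the lowest and the second highest of all 15 animals were both in SP16.

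ENSOARG00000013932 shared its 2 highest animals. It stood at 0.899, 1.22, 0 and 161 CPM in SP4, at 60, 0, 2.43 and 288.5 CPM in SP16, at 1.21, 3.73 and 9.56 CPM in LP4, and at 41.5, 31.1, 15.99 and 3.51 CPM in LP22. SP4 animal 4 and SP16 animal 4 were highest for both genes, and SP4 animal 3 and SP16 animal 2 were at or near 0 for both. Pairwise r among the 3 genes ran from 0.802 to 0.862 and Spearman's rho from 0.771 to 0.865 over 15 animals. The ratio of ENSOARG00000009137 to ENSOARG00000013932 varied from 4.57 to 368 among animals in which both had counts, so these genes moved in the same animals without keeping the fixed proportions of the LP22 set. A single gene outside the set, at 25.1 CPM in SP16 animal 4 and 11.2 CPM in SP4 animal 4, also had these as its 2 highest animals.

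A pair was highest in SP4 animal 2. ENSOARG00000023771 stood at 118, 1758, 138 and 374 CPM in SP4, at 117, 332, 121 and 129.9 CPM in SP16, at 144, 36.1 and 351 CPM in LP4, and at 118, 419, 165 and 176 CPM in LP22. The pair correlated at r = 0.998 and kept a ratio of 1.86 to 2.36 over the 15 animals. Whether the 2 genes share reads through overlap or a near-identical copy was not tested. The repeats did not hold their level: ENSOARG00000023771 was at 329.7 CPM in the first and 7.42 CPM in the repeat library of SP4 animal 1, and at 491 CPM and 35.6 CPM in the corresponding libraries of LP4 animal 2. LP4 animal 3, which was not used for choosing members, had 989 CPM.

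A set of 3 genes highest in SP4 animal 1 was not equally high in both of its libraries. ENSOARG00000003341 was at 234 CPM in the first library and 41.3 CPM in the repeat, and ENSOARG00000007233 at 118.6 CPM in the first and 1.59 CPM in the repeat. The third gene was at 1.58 CPM in the first and 29.4 CPM in the repeat. Outside this animal the 3 genes did not exceed 12.8 CPM in the animals used. With its libraries summed, pairwise r over the 15 animals ran from 0.777 to 0.855, but Spearman's rho only from 0.304 to 0.493. The third gene and ENSOARG00000003341 were both far above their medians of 1.31 and 7.27 CPM in the repeat library. ENSOARG00000007233 was near its median of 1.36 CPM there and high in the first library only. In the first library the third gene was near its median. Across all members at 20 CPM or more in either library of SP4 animal 1, 10 of 29 differed more than 5-fold, 5 in each direction. Of all 6608 genes at that level 0.469% did, and here too the choice of members used these libraries, so the shares are given as a description.

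**Figure D4:**
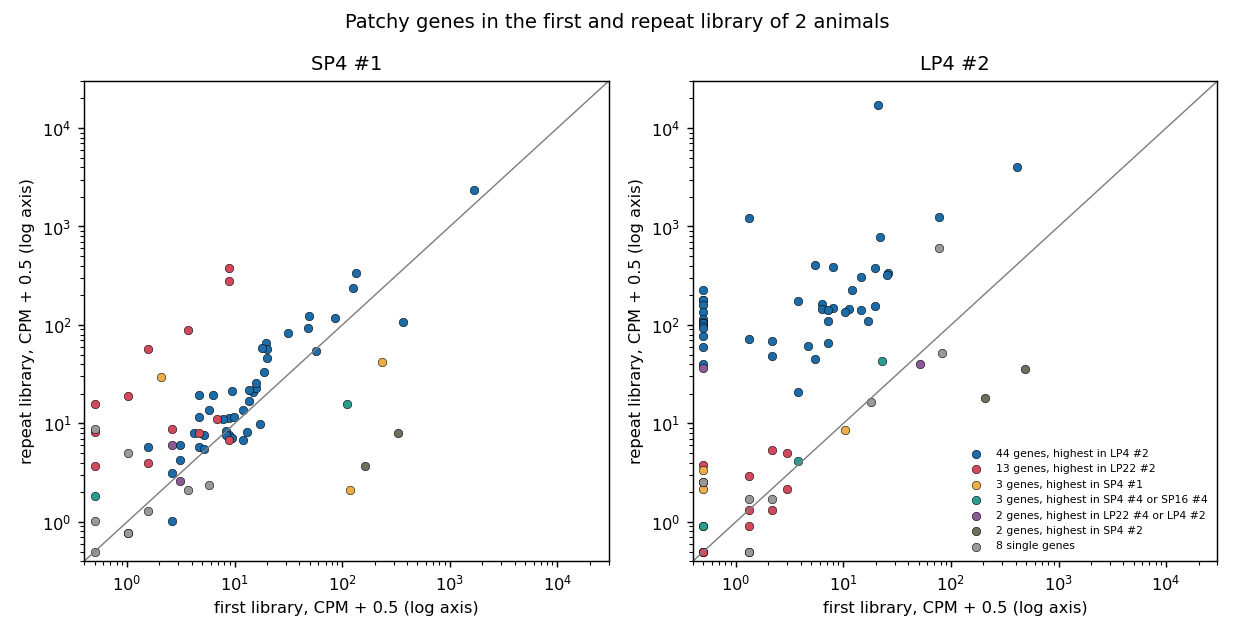
CPM + 0.5 of each patchy gene in the first library (horizontal axis, log scale) and in the repeat library (vertical axis, log scale) of SP4 animal 1 and LP4 animal 2, coloured by set, with the line of equality. In LP4 animal 2 the 44 genes lie above the line, and in SP4 animal 1 most of the 13 genes do, while genes of the smaller sets lie on both sides of it.

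A high level seen in both libraries of LP4 animal 2 was rare among the members, and the same count was not made for SP4 animal 1. At 10 times the median and at least 10 CPM, 2 members were high in both libraries of LP4 animal 2. One was ENSOARG00000002744, with 50.5 CPM (61 counts) in the first and 39.2 CPM (96 counts) in the repeat. It was also at 41.2 CPM (94 counts) in LP22 animal 4, and in the other 13 animals it stayed at or below 3.12 CPM. It was joined in a pair at r = 0.842 with a gene that had 0 counts in the first library of LP4 animal 2. In the libraries not used for choosing members, 0 members passed both thresholds in LP4 animal 3, beside 5 of all genes. The first of the LP4 animal 2 libraries had 1 such member, beside 2 of all genes.

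The other member high in both libraries of LP4 animal 2 stood at 17.4 CPM in the first and 15.9 CPM in the repeat. Its 3 highest animals were LP22 animal 2 at 22.8 CPM, SP16 animal 2 at 18.3 CPM and LP4 animal 2 at 16.2 CPM, and the next was at 5.58 CPM. A second single gene had the same 3 highest animals, with 609.9 CPM in LP4 animal 2, 75.6 CPM in LP22 animal 2 and 65.5 CPM in SP16 animal 2, and 15.3 CPM in the next. In the first library of LP4 animal 2 this gene was at 77.0 CPM, under 10 times its median of 8.97 CPM. Another single gene was split into 2 levels across groups. It was at 27.8, 26.5 and 22.0 CPM in SP16 animals 1, 2 and 4 and at 20.02 and 25.9 CPM in LP22 animals 1 and 3, and at 0.360 to 3.23 CPM in the other 10 animals.

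ENSOARG00000000618 differed from the rest in following a group. Its levels were 2.16, 3.67, 3.69 and 1.79 CPM in SP4, 7.61, 14.5, 3.12 and 13.8 CPM in SP16, 98.6, 52.2 and 159 CPM in LP4, and 21.0, 5.56, 13.3 and 16.2 CPM in LP22. All 3 LP4 animals lay above the other 12, SP4 held 4 of the 5 lowest levels, and SP16 overlapped LP22. The libraries not used for choosing members were high too, at 130.5 CPM in LP4 animal 3 and at 82.0 CPM in the first of the libraries of LP4 animal 2.

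Within groups, members spread far more than other genes, which follows from how they were chosen and is given for scale. For the 31 members outside the set of 44, the median log2 range between the highest and lowest animal of a group was 3.34 in SP4, 1.71 in SP16, 1.04 in LP4 and 3.95 in LP22. Over all 13446 genes tested it was 0.50, 0.51, 0.48 and 0.53. In LP4 the set of 44 had a median range of 3.83.

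Group differences were taken from edgeR's quasi-likelihood test with Benjamini-Hochberg adjustment, fitted to all 13446 genes that passed the filter on low counts. Of the 75 members, 62 passed the filter and 13 did not, and 41 of the set of 44 and 9 of the set of 13 were among those that passed. A member high in 1 group was more likely to pass, and the rule used the same levels. The counts, fold changes and p-values below are therefore a description of the members and not a result about them.

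In LP4 against SP4, 9 of the 62 members were called, all higher in LP4, beside 1.79% of all genes tested and 1.22% called higher. The median log2 fold change was 1.91 over the 62 members and 0.0050 over all genes tested. Of these 9, 8 came from the set of 44, with log2 fold changes of 2.25 to 3.60, standard errors of 0.56 to 0.81 and adjusted p-values of 0.0283 to 0.0499. The remaining one was ENSOARG00000000618, with a log2 fold change of 5.25 (SE 0.46, adjusted p = 2.83e-06). ENSOARG00000022315 had a log2 fold change of 2.05 (SE 0.60) and did not pass, with an adjusted p of 0.0941. Without LP4 animal 2, ENSOARG00000000618 was the 1 member called. The count was also 1 without SP4 animal 1, 2 or 3, and 2 without SP4 animal 4. It was 34 without LP4 animal 1 and 36 without LP4 animal 4, each leaving 2 LP4 animals. Leaving out 1 SP16 or LP22 animal, outside the comparison, gave 4 to 6. The share of all genes was not taken for these runs, so the counts are no result about the members.

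In LP22 against SP16, 7 members were called, all higher in LP22, beside 3.23% of all genes and 1.73% called higher. The median log2 fold change was 0.23 over the 62 members and 0.00042 over all genes tested. The set of 13 gave 6 of them, with log2 fold changes of 2.95 to 7.16, standard errors of 0.79 to 1.71 and adjusted p-values of 0.0195 to 0.0480. ENSOARG00000009143 rose by a log2 fold change of 7.13 (SE 1.63, adjusted p = 0.0196, and 0.00135 to 0.222 over the alternatives). The seventh was a single gene, at 0.953, 70.1, 58.5 and 19.7 CPM in LP22 and at or below 3.47 CPM in SP16. It had a log2 fold change of 4.24 (SE 1.05, adjusted p = 0.0311). Without LP22 animal 2, 0 members were called, and ENSOARG00000009143 had a log2 fold change of 4.15 with an adjusted p of 0.118. The count was also 0 without SP16 animal 1, 3 or 4, and 4 without SP16 animal 2. It was 5 to 8 without LP22 animal 1, 3 or 4, and 6 to 10 without an SP4 or LP4 animal, outside the comparison. Here too the share of all genes was not taken for these runs.

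In SP16 against SP4, 0 members passed by the quasi-likelihood test, beside 0.00744% of all genes. At an unadjusted p under 0.05 there were 6 members, beside 10.7% of all genes. At an adjusted p under 0.05, DESeq2 called 0 members and edgeR's exact test 2, with no share of all genes taken for these. The median log2 fold change was -0.36 over the 62 members and -0.00058 over all genes. In LP22 against LP4, 1 member was called, beside 0.0297% of all genes and 0.0223% called lower. It was ENSOARG00000000618, whose log2 level fell by 2.86 (SE 0.38, adjusted p = 0.00689). The difference between its early and late photoperiod responses was -4.64, for LP22 against SP16 minus LP4 against SP4. Its adjusted p in the quasi-likelihood test was 0.0173, for 1 of 62 members beside 0.0892% of all genes and 0.0669% called lower. The fall did not pass with robust dispersion (adjusted p = 0.0743) or with only the 2 groups compared (adjusted p = 0.143). The difference between durations did not pass with robust dispersion (adjusted p = 0.0686), without SP4 animal 1 (adjusted p = 0.0659) or without SP16 animal 2 (adjusted p = 0.0524). These comparisons share their LP4, SP4, SP16 and LP22 animals with each other.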

How the data were processed

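The authors aligned reads with Bowtie to Oar_v3.1 and counted them per gene with HTSeq; versions, strand and feature type are not given in the sources used here. The deposited files hold raw counts per Ensembl gene ID for each of 18 libraries, followed by 5 HTSeq summary lines, which were left out of library sizes. Reads in no feature took 47.2% to 84.55% of aligned reads.

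The rule's CPM used TMM factors from edgeR 4.0.16 in R 4.3.3. Log2 CPM used a prior count of 2. Members were joined by average linkage on Pearson's r. Counts of all 4 groups were fitted together by glmQLFit after filterByExpr (minimum count 10, minimum total 15), with no block, and the interaction and pairwise contrasts were tested 2-sided with glmQLFTest at an adjusted p under 0.05. Standard errors were derived as the absolute log2 fold change divided by the square root of the F statistic of glmQLFTest. The floor of detection was 3 counts, and it covers counting error only. The procedure was tested on simulated data. DESeq2 1.42.0 was an alternative. Figures used matplotlib 3.10.9. P-values measure the spread between the animals as read here, which also holds differences between libraries.

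The members, lists and tests were chosen with earlier results of these data known. The rule for naming gave the 2 members with the highest level in a long-photoperiod animal and the 2 with the highest in a short-photoperiod animal: ENSOARG00000022315, ENSOARG00000023987, ENSOARG00000009137 and ENSOARG00000023771. The 6 other IDs were chosen after their values were seen. Marker lists were written as gene symbols, and 0 of 25197 IDs matched the reference table, so these checks were not made, and no sequence is shown. The labels number animals 1 to 4 in every group, but same-numbered animals did not deviate together (mean r -0.0103 over 21 pairs, 0.00372 over 63 other pairs), so the numbers were not taken as pairs.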

Additional observations from a re-analysis of the deposited data

Results flagged for a closer look

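For the 10 genes named by ID, the highest or lowest animal of each group of 4 was compared with the other animals, and an animal was noted when its gap to the nearest other exceeded the critical value of Dixon's test. Of 30 groups examined, 10 held such an animal, and chance alone flags about 1 in 20 groups, or 1.5 of 30. These genes were chosen for 1 high animal, so the number says nothing further about them.

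The animals noted stood above the rest of their group. ENSOARG00000009137 was at 6613 CPM in SP4 animal 4 and at 4542 CPM in SP16 animal 4, and ENSOARG00000013932 at 161.1 CPM in SP4 animal 4. ENSOARG00000023771 was at 1758 CPM in SP4 animal 2 and 332.4 CPM in SP16 animal 2. ENSOARG00000009143 was at 260.4 CPM in SP4 animal 1 and 3469 CPM in LP22 animal 2, and ENSOARG00000002744 at 41.2 CPM in LP22 animal 4. ENSOARG00000003341 was at 108.3 CPM and ENSOARG00000007233 at 41.72 CPM in SP4 animal 1, both from its summed libraries.

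The change of ENSOARG00000000618 with photoperiod differed between exposures by a test of the difference itself, at a log2 value of -4.64. It did not pass with robust dispersion (adjusted p = 0.0686), without SP4 animal 1 (0.0659) or without SP16 animal 2 (0.0524) in edgeR's quasi-likelihood test. Signal also appeared in libraries that entered only the alternative fits. ENSOARG00000000618 was at 130.5 CPM in LP4 animal 3 and at 82.0 CPM in the first of the libraries of LP4 animal 2, above all SP4 and SP16 animals, and ENSOARG00000002744 was at 50.5 CPM in the first library of LP4 animal 2.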

How the results depend on the processing

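The 75 members became 76 with RLE scaling, 74 with upper-quartile scaling and 44 with no scaling beyond the total count. They became 141 at 5-fold (78 highest in LP4 animal 2), 24 at 20-fold, 12 when the second highest animal had to pass, 37 with first libraries only (chosen after seeing the data, with LP4 animals 2 and 3 left out), and 31 to 78 when animals were left out in turn, the lowest without LP4 animal 2. The 57 members in sets of 5 or more became 19 with Spearman's rho, 19 with first libraries only, and 23 to 59 when animals were left out, the lowest without LP4 animal 2.

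For LP4 against SP4, 9 members called became 2 with DESeq2, 28 with the exact test, 1 with robust dispersion, 27 with no filter, 1 with all 16 animals, 1 with first libraries only, 1 with only the 2 groups compared, and 1 to 36 when animals were left out. For LP22 against SP16, 7 became 0 with DESeq2, 0 with robust dispersion, 11 with no filter, 0 with all 16 animals, 11 with first libraries only, and 0 to 10 when animals were left out, the highest without LP4 animal 2. For SP16 against SP4, 0 became 2 with the exact test, 1 with no filter and 0 to 1 when animals were left out, the highest without SP16 animal 3. For LP22 against LP4, 1 became 26 with the exact test, 0 with robust dispersion, 17 with no filter, 0 with only the 2 groups compared, and 1 to 21 when animals were left out, with 21 without LP4 animal 1 and 20 without LP4 animal 4. The share of all genes called was taken for the main fit only, and a setting can change the calls of every gene. These changes in count are therefore not read as results about the members. The cause of the changes was not tested for any setting. DESeq2 gave no adjusted p for 36 or 37 of the 62 members.

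With the animal number as a replicate block, the calls became 2, 6, 0 and 1 for LP4 against SP4, LP22 against SP16, SP16 against SP4 and LP22 against LP4. None of the 5 log2 fold changes refitted, of ENSOARG00000000618, ENSOARG00000009143 and ENSOARG00000023987, changed direction, and those of other members were not refitted. ENSOARG00000000618 in LP4 against SP4 passed in every alternative run, with log2 fold changes of 4.79 to 5.57 when animals were left out. These runs reuse the animals whose levels made ENSOARG00000000618 a member, so its passing is a description and not separate support. The fall of ENSOARG00000000618 in LP22 against LP4 did not pass with robust dispersion or with only the 2 groups compared. Its interaction did not pass with robust dispersion or without SP4 animal 1 or SP16 animal 2. In LP4 against SP4, ENSOARG00000023987 passed in 7 alternatives and did not in 18. In LP22 against SP16, ENSOARG00000009143 passed in 19 and did not in 6. Leaving out an animal outside a comparison was also added after seeing the data.

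In LP4 only 3 animals were used, 1 of them from a library that stood apart, so LP4 ranges rest on few values. No library other than the repeats measured an animal again. Members at a median of 0 to a few counts have folds that depend on single reads in the median animal. Differences between the libraries of an animal carry no replicate error.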
